A study of Mus musculus with 6 samples.

Results

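Potassium channel genes were taken as every protein-coding row of the deposited table whose symbol begins with Kcn, which gave 94 of the 47729 genes listed. They were compared between 4T1 and 4TO7, 2 mouse mammary carcinoma lines that the labels trace to a spontaneous tumour of BALB/c mice. As background, both lines descend from the same parental tumour, and 4T1 forms distant metastases readily whereas 4TO7 disseminates but rarely forms visible ones. Each line was grown untreated in DMEM with serum and was sequenced as total RNA in 3 libraries. Each group is therefore 1 cell line, so the line and any trait that separates the lines cannot be told apart. The labels do not say whether the 3 libraries of a line came from separate cultures, so p-values reflect no more than the variation among these libraries, possibly technical.

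Potassium channels let potassium leave the cell and so hold the membrane voltage negative, which in epithelial and tumour cells bears on volume control, calcium entry, migration and passage through the cell cycle. The pore is built from alpha subunits. Two-pore-domain channels leak at rest, inward rectifiers pass current near the resting voltage, voltage-gated channels open on depolarisation, and calcium-activated channels open when cytosolic calcium rises. Beta subunits form no pore of their own and change the gating, trafficking or sensitivity of the channel they join.

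The 6 libraries held 33605566 to 39072639 reads. 4TO7 replicate 2 lay apart from its group: the SD of its log2 differences over all tested genes was 0.660 against replicate 1 and 0.704 against replicate 3, while replicates 1 and 3 differed by 0.366 and the 4T1 pairs by 0.456 to 0.513. All 5 epithelial markers (Epcam, Cdh1, Krt8, Krt18 and Krt19) were higher in 4T1, with a summed level of 144848 to 160504 normalised counts in 4T1 and 25823 to 42451 in 4TO7, where Krt8 and Krt18 remained well detected and Krt19 had 4 reads. Of 9 neuron markers 1 could be tested, Map2, which was higher in 4TO7; the list summed to 639 to 1016 in 4T1 and 1297 to 2187 in 4TO7, and Rbfox3 and Elavl4 were at 0 reads in every library. Of 8 muscle markers 3 were tested, of which 2 were higher in 4T1 and 1 in 4TO7. The sums were 89.8 to 148 and 134 to 165, and Myog and Myod1 were at 0 reads. Of 9 mesenchymal and fibroblast markers 3 were tested, of which 2 were higher in 4TO7 (Pdgfra and Pdgfrb). The sums were 103049 to 119511 and 94444 to 114469, nearly all of it Vim, and Col3a1, Thy1 and Lum were at 0 reads. Of 7 leukocyte markers 1 could be tested, Cd68, which was higher in 4T1. The sums were 229 to 435 and 91.7 to 163, and Adgre1 and Cd3e were at 0 reads. None of the 5 endothelial markers was tested, and they summed to 12 to 19.2 and 9.43 to 14.0. Among all tested genes 25.1% were higher in 4T1 and 23.9% in 4TO7. The bearing of these markers on the results below was not tested, and in bulk RNA fewer cells with a transcript and less of it per cell cannot be told apart.

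Most potassium channel genes had few or no reads in either line at this depth. No read was found in any library for 43 of the 94 (45.7%, against 26.8% of all protein-coding genes), and a further 34 stayed below the low-value filter, which kept a gene only if its normalised count (reads divided by the size factor of the library) reached 10 in 3 or more of the 6 libraries. The 17 that passed were 18.1% of the family, against 55.0% of protein-coding genes. Of these 17, 13 differed between the lines (limma on log2(value + 1), Benjamini-Hochberg adjusted p under 0.05), with 4T1 above 4TO7 for 4 genes and below it for 9. The background is high, since 49% of all 14276 tested genes were called: 25.1% had the higher level in 4T1, 23.9% in 4TO7. In 3 of the 17 every 4TO7 library was under the filter minimum and in 3 others every 4T1 library was, so those 6 passed through 1 line alone and had to differ; the count of 13 is a description. The median log2 fold change of the 17 was -0.74 (4T1 minus 4TO7), against 0.03 over all tested genes. Library ranges did not overlap for 14 of the 17, compared with 58.4% of all tested genes. For the 6 that passed through 1 line alone this was fixed by the filter, so the count of 14 is likewise a description.

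**Figure D1:**
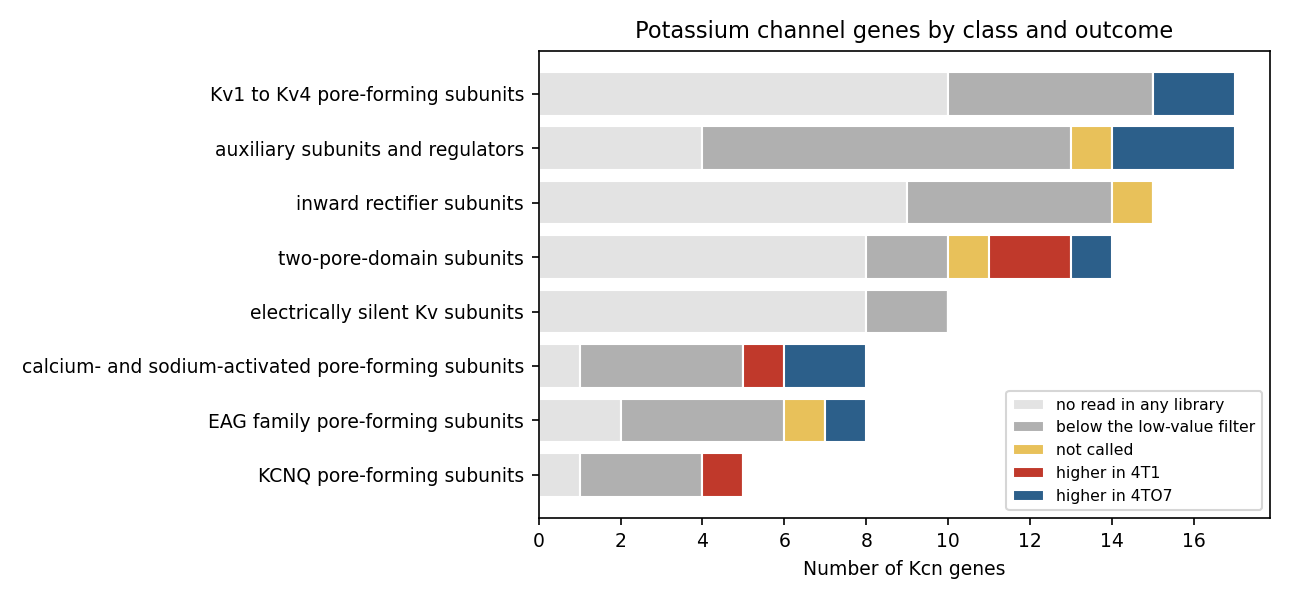
Number of Kcn genes (horizontal axis) in each channel class, divided by outcome: no read in any library, below the low-value filter, tested but not past the threshold, higher in 4T1, or higher in 4TO7. None of the 10 electrically silent Kv subunits was tested, and genes were called in both directions in 2 classes, the two-pore-domain and the calcium- and sodium-activated class.

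The 2-pore-domain genes held the widest contrast. Of 14, 8 had no read, 2 were below the filter and 4 were tested. Kcnk1 encodes TWIK-1, a leak channel (ENSMUSG00000033998; chromosome 8, 125995170 to 126030685, plus strand, GRCm38). Its normalised counts were 4562, 4407 and 4395 in the 4T1 libraries and 0, 0 and 1.99 in the 4TO7 libraries, in the order of replicates 1 to 3, as for all genes below. The 4T1 libraries differed little (4455 ± 93.2, SD, n = 3), and the 4TO7 signal was 2 reads, both in replicate 3. The ratio of reads was 6742 (exact 95% interval 1866 to 55680, counting error only), and without that library, with 0 reads left in 4TO7, 4T1 was at least 3003-fold higher against a floor of 3 reads over the remaining pair. The log2 fold change was 11.59 ± 0.42 (SE; adjusted p = 2.97e-07), a value that depends on the added count of 1. An antisense gene, Gm45875, shares 179 exon bases with Kcnk1 and was not analysed here.

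Kcnk6 encodes TWIK-2, the closest relative of TWIK-1 (chromosome 7, 29221926 to 29232515). It had 243, 183 and 253 in 4T1 and 0.936, 0 and 0 in 4TO7. All 4T1 libraries were high and 4TO7 held 1 read, in replicate 1. The ratio of reads was 686 (95% interval 123 to 27148), at least 148-fold without that library, and the adjusted p was 1.27e-06. Both TWIK genes were thus called in the same direction. Each passed the filter through 4T1 alone, so that direction was fixed by the filter.

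The remaining 2-pore genes were present in both lines. Kcnk5 encodes TASK-2, a channel opened by alkaline pH (chromosome 14, 20140057 to 20181809). It had 1177, 1067 and 1107 in 4T1 and 1386, 1829 and 1819 in 4TO7. The ranges did not overlap, and 4TO7 was 1.5-fold higher (log2 fold change -0.58 ± 0.16; adjusted p = 0.0162). It no longer passed when either 4T1 replicate 2 was left out (adjusted p = 0.0561) or 4TO7 replicate 3 was (adjusted p = 0.0671). Kcnk2, the stretch- and lipid-sensitive TREK-1 (chromosome 1, 189207930 to 189402273), had 2403, 1437 and 1902 in 4T1 and 1506, 1291 and 1559 in 4TO7. Its ranges overlapped and it did not pass (log2 fold change 0.37 ± 0.20; adjusted p = 0.158), although it did without 4T1 replicate 2 (adjusted p = 0.0461).

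The 250 bases before the RefSeq start of Kcnk1 and of Kcnn4 are shown because these were the most abundant pore-forming transcripts per kilobase in 4T1 and in 4TO7. Both are on the plus strand (GRCm38.p6, chr8:125994852-125995101 and chr7:24370013-24370262, from RefSeq), written 5′ to 3′ with matches to CAGGTG (an E-box) or GGGCGG (a GC box), on either strand, in capitals.
Kcnk1: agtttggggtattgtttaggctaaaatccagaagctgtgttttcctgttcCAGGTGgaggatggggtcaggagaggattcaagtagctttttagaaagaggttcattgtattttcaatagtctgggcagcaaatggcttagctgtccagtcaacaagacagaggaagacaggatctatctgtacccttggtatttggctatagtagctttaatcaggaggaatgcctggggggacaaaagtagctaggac
Kcnn4: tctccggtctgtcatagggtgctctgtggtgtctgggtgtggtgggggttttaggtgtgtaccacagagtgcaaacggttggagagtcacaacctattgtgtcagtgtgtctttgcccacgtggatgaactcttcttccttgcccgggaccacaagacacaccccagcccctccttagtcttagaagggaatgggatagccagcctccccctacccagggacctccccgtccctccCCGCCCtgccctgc
The Kcnk1 window had 44.4% G + C, no CG dinucleotide and 1 E-box, whose first base lies 200 bases before the start. GENCODE vM21 places the start of Kcnk1 68 bases further downstream. The Kcnn4 window had 58.8% G + C, 6 CG dinucleotides and 1 GC box, its first base 14 bases before a start that both annotations share. Over all 32851 RefSeq windows of this length the median G + C was 52.4%, 17.2% held the E-box and 32.7% the GC box, and the motifs can share no more than 1 base. These matches describe the letters only.

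Among the 8 calcium- and sodium-activated pore genes 3 were tested. Kcnn4 encodes KCa3.1, the intermediate-conductance channel that calcium opens through bound calmodulin (ENSMUSG00000054342; chromosome 7, 24370263 to 24386690). It had 5286, 4730 and 4410 in 4T1 and 11014, 12356 and 12477 in 4TO7. Every 4TO7 library exceeded every 4T1 library by more than the spread within either line. 4TO7 was 2.48-fold higher (11949 ± 812 against 4808 ± 443; log2 fold change -1.31 ± 0.13; adjusted p = 7.83e-05).

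Kcnn1, which encodes the small-conductance channel SK1 (chromosome 8, 70842049 to 70863258), went the other way. It had 102, 61.8 and 83.0 in 4T1 and 9.36, 2.10 and 10.9 in 4TO7. The ranges did not overlap and 4TO7 replicate 2 was the lowest. 4T1 was 11-fold higher (log2 fold change 3.49 ± 0.52; adjusted p = 0.000891). Its close relatives were almost absent, with 0 reads for Kcnn2 and 1 read for Kcnn3.

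Kcnu1 encodes SLO3, a pH-gated channel known from sperm (chromosome 8, 25849623 to 25937939). It had 5.04, 2.99 and 4.83 in 4T1 and 78.6, 34.6 and 82.6 in 4TO7. Its level was low even in 4TO7, where replicate 2 lay under the others, and it was 15.2-fold higher there (adjusted p = 0.000195). Kcnu1 passed the filter through 4TO7 alone, so its direction and the lack of overlap were fixed by the filter. Lrrc52, whose product is the gamma subunit of SLO3, had 0 reads in every library. Kcnma1, the pore of the large-conductance BK channel, had 1 read in all.

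**Figure D2:**
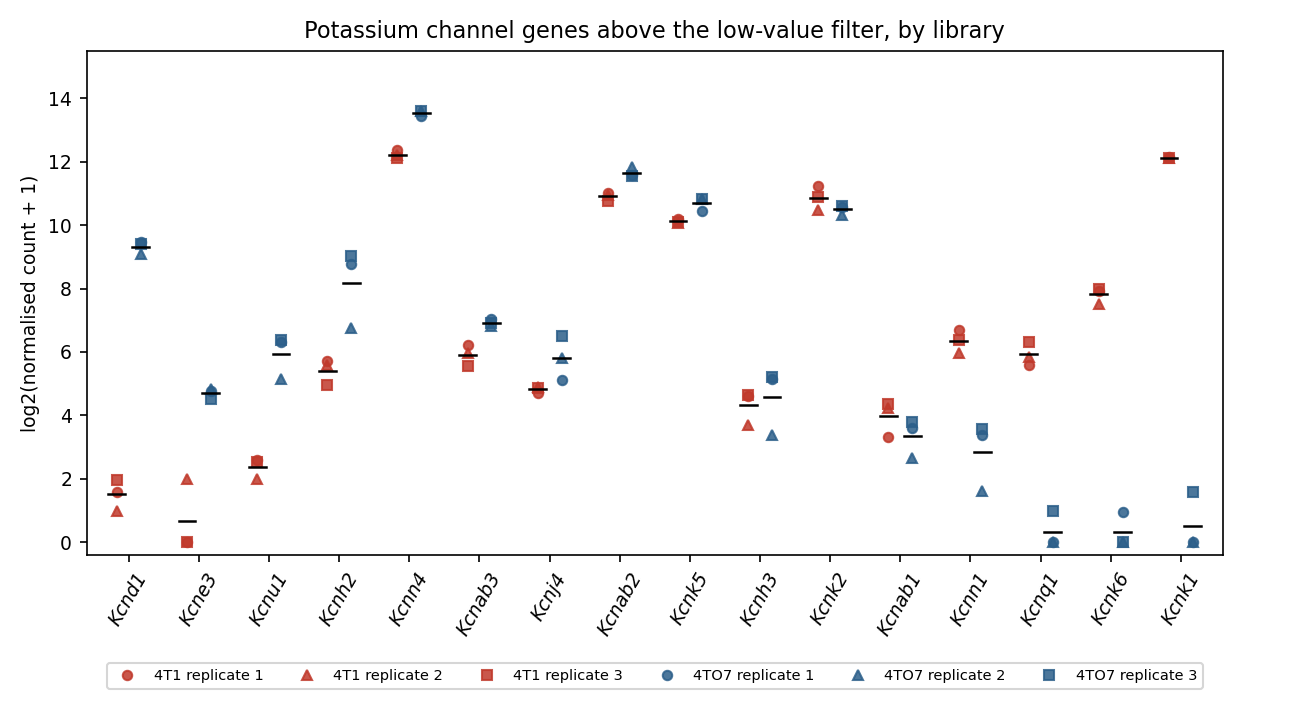
Level of the tested Kcn genes reported here, as log2(normalised count + 1) on the vertical axis, with 1 symbol per library (shapes mark replicates 1 to 3), red for 4T1 and blue for 4TO7, and black bars at the mean of each line. Genes run from the most 4TO7-high on the left (Kcnd1) to the most 4T1-high on the right (Kcnk1), and 4TO7 replicate 2 (triangles) is low for Kcnh2, Kcnu1, Kcnh3 and Kcnn1.

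Levels of different genes can be set against each other only per length. Dividing each normalised count by the merged exon length of the gene in GENCODE vM21, the summed level of all 94 genes was 4173 ± 263 normalised counts per kilobase in 4T1 and 4072 ± 232 in 4TO7 (SD, n = 3 each), with overlapping ranges of 4019 to 4476 and 3813 to 4261. The totals thus overlapped while their make-up differed. Kcnk1 gave 45.6 to 49.0% of the 4T1 total and at most 0.0209% of the 4TO7 total. Kcnn4 gave 21.4 to 23.1% in 4T1 and 56.5 to 58.3% in 4TO7. The 2-pore-domain class as a whole gave 65.1 to 68.1% in 4T1 and 18.7 to 20.0% in 4TO7. Per kilobase, Kcnk1 (1993 ± 41.7), Kcnn4 (940 ± 86.6) and Kcnk2 (387 ± 97.8) ranked highest in 4T1, the last within its spread of Kcnab2 (346 ± 31.1) and Kcnk5 (328 ± 16.4). In 4TO7 the order was Kcnn4 (2336 ± 159), Kcnab2 (579 ± 63.2), Kcnk5 (493 ± 74.4) and Kcnk2 (294 ± 28.7), where Kcnab2 and Kcnk5 lay within their spread of each other. Without division by length the family total was 14262 to 16347 normalised counts in 4T1 and 18832 to 20813 in 4TO7, without overlap. The lengths are those of all annotated exons, so a line that uses a shorter transcript would be scaled too low.

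**Figure D3:**
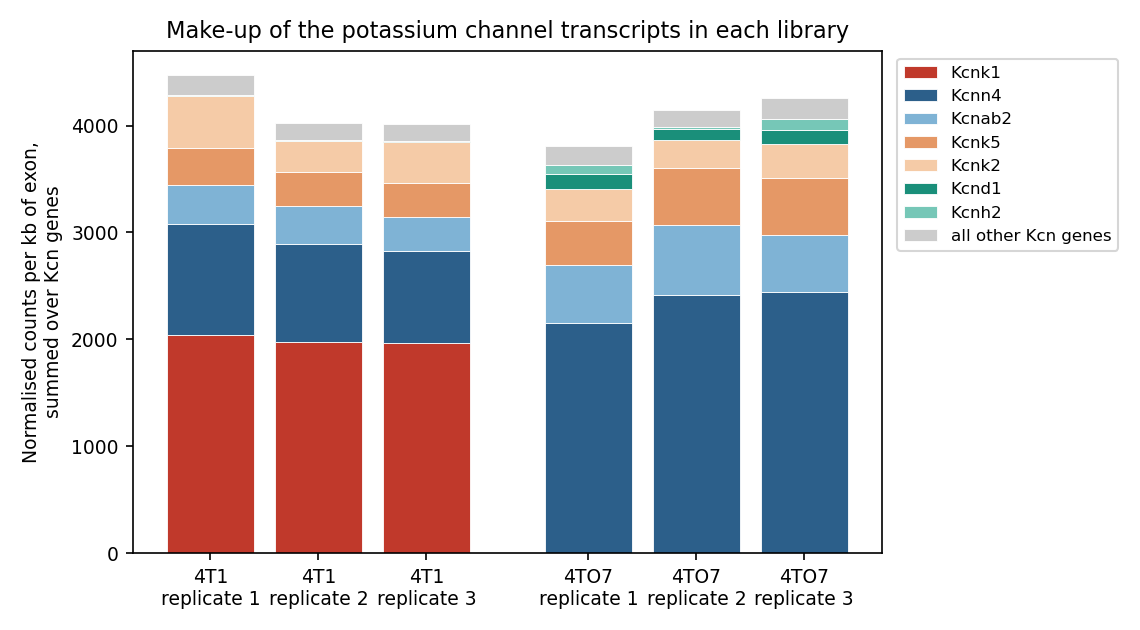
Normalised counts per kilobase of merged exon, summed over all 94 Kcn genes and stacked by gene, for each of the 6 libraries. Column heights lie between 3813 and 4476, Kcnk1 (red) fills 45.6 to 49.0% of each 4T1 column and is not visible in the 4TO7 columns, and Kcnn4 (dark blue) fills more than any other gene in 4TO7.

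Voltage-gated pore genes were few. Of 17 in the Kv1 to Kv4 families, 10 had no read, among them Kcna2, Kcna3 and Kcna5, and 2 were tested. Kcnd1 encodes Kv4.1, a fast-inactivating A-type channel (ENSMUSG00000009731; chromosome X, 7822289 to 7838280). It had 2.02, 0.996 and 2.90 in 4T1 and 709, 544 and 671 in 4TO7. All 4T1 libraries together held 6 reads. Kcnd1 passed the filter through 4TO7 alone, so its direction and the lack of overlap were fixed by the filter. 4TO7 was 326-fold higher (log2 fold change -7.80 ± 0.32, adjusted p = 5.1e-07). With so few 4T1 reads the ratio was unsteady, at 261 without 4T1 replicate 2 and 426 without 4T1 replicate 3. Transcripts of the Kcnip and Dpp partners of Kv4 pores were nearly missing. Kcnip1 had 0 reads, Kcnip2 to Kcnip4 at most 3 reads each over all libraries, Dpp6 had 0 reads and Dpp10 2. Protein was not measured.

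None of the 10 electrically silent Kv subunits, which form channels only together with Kv2 pores, passed the filter.

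In the EAG family, Kcnh2 encodes ERG1, the rapid delayed rectifier of the heart (chromosome 5, 24319589 to 24351604). It had 51.5, 46.8 and 29.9 in 4T1 and 440, 108 and 516 in 4TO7. The lowest 4TO7 library, replicate 2, was still above every 4T1 library. 4TO7 was 8.29-fold higher (log2 fold change -2.77 ± 0.56; adjusted p = 0.00411), and 11.2-fold without replicate 2 (adjusted p = 1.43e-05). Kcnh3, an ELK-type channel, had 23.2, 12 and 24.1 in 4T1 and 34.6, 9.43 and 35.8 in 4TO7. Its lines overlapped and it did not pass (adjusted p = 0.706).

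Of 5 KCNQ genes only Kcnq1 was tested. Kcnq1 encodes the slow delayed rectifier pore, which in epithelia also recycles potassium (chromosome 7, 143106362 to 143427042). It had 47.4, 56.8 and 79.2 in 4T1 and 0, 0 and 0.995 in 4TO7. The ratio of reads was 186 (95% interval 32.9 to 7378), at least 41.4-fold without 4TO7 replicate 3, which held the single read, and the adjusted p was 1.27e-05. Kcnq1ot1, the imprinted antisense transcript that starts inside Kcnq1 and shares 121 exon bases with it, averaged 374 ± 47.5 in the 4T1 libraries, against 421 ± 103 in those of 4TO7, with overlapping ranges (adjusted p = 0.597), so it was present in 4TO7 libraries in which Kcnq1 was nearly absent.

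Of 17 auxiliary subunits and regulators, 4 were tested. Kcnab2 encodes the beta2 subunit of Kv1 channels (chromosome 4, 152390742 to 152477871). It had 2078, 1978 and 1741 in 4T1 and 3042, 3636 and 3010 in 4TO7. The ranges did not overlap and 4TO7 was 1.67-fold higher (log2 fold change -0.74 ± 0.14; adjusted p = 0.00322). Kcnab3, for the beta3 subunit (chromosome 11, 69326258 to 69333042), had 73.7, 61.8 and 46.3 in 4T1 and 131, 112 and 119 in 4TO7. It too did not overlap and was 1.99-fold higher in 4TO7 (adjusted p = 0.0116). The Kv1 pores these subunits join were not above the filter in either line: of the 8 Kcna genes, Kcna7 had the most, with 10 reads over all libraries.

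Kcne3 encodes a small beta subunit that holds the Kcnq1 channel open in epithelia (chromosome 7, 100176502 to 100184869). It had 0, 2.99 and 0 in 4T1 and 26.2, 27.2 and 21.9 in 4TO7. All 3 reads of 4T1 came from replicate 2, and the ratio of reads was 25.4 (95% interval 8.35 to 126; adjusted p = 0.000587), at least 17-fold without that library. Kcne3 and Kcnq1 differed in opposite directions, and no library held both at 10 normalised counts or more. That value is the filter minimum. Kcne3 passed through 4TO7 alone and Kcnq1 through 4T1 alone, so both statements follow from how these genes passed. Kcnab1, for the beta1 subunit, averaged 15.4 ± 5.55 (4T1) against 9.80 ± 4.04 (4TO7), with overlapping ranges (adjusted p = 0.268). The overlapping antisense gene A330015K06Rik, which shares 201 exon bases with it, averaged 24.1 ± 7.89 and 0.699 ± 1.21, and no source used here gives the strand setting of the counting.

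Inward rectifier genes had few reads in either line. Of 15 genes, 9 had no read, among them Kcnj2, Kcnj10 and Kcnj11, and Kcnj4, for Kir2.3 (chromosome 15, 79483714 to 79505241), alone was tested. It had 25.2, 28.9 and 28.0 in 4T1 and 33.7, 55.5 and 89.6 in 4TO7. Although the ranges did not overlap, the 4TO7 libraries were widely spread, and the gene missed the threshold (log2 fold change -0.99 ± 0.37; adjusted p = 0.0538). It passed in 7 of the 15 alternatives, including edgeR (adjusted p = 0.03) and DESeq2 (adjusted p = 0.0296) on recovered reads.

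Below the filter, 25 of the 34 genes had at most 3 reads over all libraries and 9 had more. When every gene with a read was fitted, 3 of these 34 passed. In the same fit 31.4% of all 25124 genes with a read passed, and 12% of the 10848 genes below the filter, so the count of 3 is near that background. Kcnh1, for the tumour-associated channel EAG1, had 9.08, 12 and 9.65 in 4T1 and 1.87, 1.05 and 1.99 in 4TO7 (adjusted p = 0.00251). Kcnmb4, a BK beta subunit, had 6.05, 9.96 and 7.72 in the 4T1 libraries, at least 7.99-fold above 4TO7, where it had 0 reads (adjusted p = 0.000243). The authors' deposited table gives 25 Kcn genes an adjusted p. Of those 25, the authors' deposited table has 17 under 0.05, 11 higher in 4TO7 and 6 higher in 4T1, where 39.1% of all genes with an adjusted p are under 0.05.

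In 4TO7 replicate 2, 5 of the 17 tested Kcn genes lay more than 1 (log2) below the mean of the other 4TO7 libraries (Kcnh2 by -2.13, Kcnn1 by -1.85, Kcnh3 by -1.80, Kcnu1 by -1.20 and Kcnab1 by -1.06), against 8.63% of all tested genes. The median difference of the 17 was -0.34, against -0.01 over all tested genes. Kcnn4, Kcnab2, Kcnk5 and Kcne3, the genes with the most positive differences, did not share this, at 0.08, 0.26, 0.20 and 0.18. Without that library the counts stayed at 4 and 9.

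**Figure D4:**
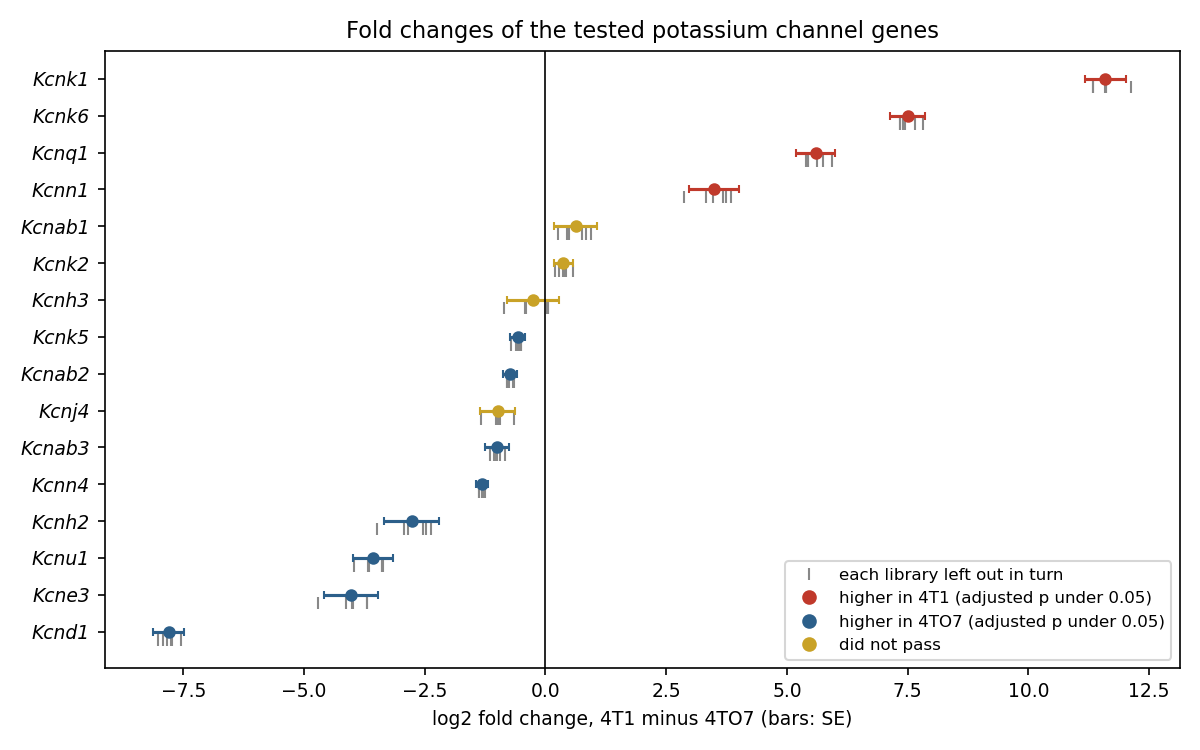
Log2 fold change (4T1 minus 4TO7, on the log2(value + 1) scale) of the tested Kcn genes reported here, with SE bars; grey ticks give the values with each of the 6 libraries left out. The called genes shown keep their side of 0 in every leave-one-out fit, from Kcnk1 (11.59) to Kcnd1 (-7.80), while Kcnh3 crosses it.

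Genes that load the cell with potassium or carry it with chloride were also compared. Of 24 genes for potassium pumps and cation-chloride cotransporters 13 were tested, of which 4T1 was higher for 3 and 4TO7 for 6. Their median fold change was -0.57 (log2). Atp1b1, a beta subunit of the sodium pump, was 7.92-fold higher in 4T1 at 840 ± 139 against 106 ± 54.6 (adjusted p = 0.00019).

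Fxyd3, a pump regulator of epithelia, was 8.86-fold higher in 4T1 (adjusted p = 0.00865), and 18.5-fold without 4TO7 replicate 3. Its log2 fold change was 3.53, rising to 4.31 without 4TO7 replicate 3 and falling to 2.46 without 4TO7 replicate 2. Slc12a1, a sodium-potassium-chloride carrier, averaged 31.0 ± 17.6 in 4TO7 and 9.16 ± 5.44 in 4T1, with overlapping ranges (adjusted p = 0.047; 5.15-fold without 4T1 replicate 3 against 3.38-fold with it). It failed to pass when 4T1 replicate 1 or 2 was left out (adjusted p = 0.153 and 0.145) and likewise for 4TO7 replicate 1 or 3 (adjusted p = 0.136 and 0.151).

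Of 28 channel partners (other subunits, the related HCN channels and trafficking proteins) 19 were tested, of which 4T1 was higher for 4 and 4TO7 for 6 (median log2 fold change 0.02). Hcn3 and Hcn2, hyperpolarisation-activated cation channels, averaged 111 ± 36.5 and 52.5 ± 9.08 in 4T1 and had 1 read each in 4TO7. Their ratios of reads were 336 (95% interval 59.8 to 13297) and 159 (95% interval 28.1 to 6313), at least 76.6-fold and 35.4-fold without 4TO7 replicate 2 and 4TO7 replicate 3, which held those reads. Abcc9, for the SUR2 subunit of ATP-sensitive potassium channels, had 46.8, 17.8 and 73.7 in the 4TO7 libraries, at least 47-fold above 4T1, where it had 0 reads. Its pore partners had few or no reads: Kcnj11 had 0 and Kcnj8 had 4, all in 4TO7 replicate 3, too few to compare the lines. Hcn3 and Hcn2 passed the filter through 4T1 alone and Abcc9 through 4TO7 alone, so their directions were fixed by the filter. Tmem175, a lysosomal potassium channel, and Amigo1, a Kv2 partner, were 2.87-fold and 1.92-fold higher in 4TO7 (adjusted p = 0.00238 and 0.00213).

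Calcium opens Kcnn4 channels, though its supply was not measured here. Of 33 calcium entry and release genes 24 were tested, of which 4T1 was higher for 5 and 4TO7 for 7 (median log2 fold change -0.13). Cacna1c, an L-type calcium channel pore, had 24.3, 16.8 and 27.9 in the 4TO7 libraries, at least 23.4-fold above 4T1, again with 0 reads there. Cacna1c passed the filter through 4TO7 alone, so its direction was fixed by the filter. The ATP-gated channels P2rx7 and P2rx4 were 3.79-fold and 2.73-fold higher in 4TO7. Cacna1a and the release channel Ryr1 were 3.12-fold and 3.06-fold higher in 4T1. Adjusted p for these 5 lay between 1.8e-05 (Cacna1c) and 0.0032 (P2rx4).

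Of 26 volume-regulated and chloride channels, a list that also holds water channels and the kinases that act on cotransporters, 21 were tested, of which 4T1 was higher for 7 and 4TO7 for 8 (median log2 fold change 0.08). The kinase gene Stk39 had 4970 ± 24.8 in 4T1 and 653 ± 133 in 4TO7, 7.61-fold higher (adjusted p = 3.24e-06). The water channel genes Aqp3, Aqp5 and Aqp1 exceeded their 4T1 level in 4TO7 by 8.48-fold, 3.83-fold and 2.70-fold (adjusted p = 0.000294, 9.08e-05 and 0.00987), and Lrrc8e, a subunit of the volume-regulated anion channel, by 2.54-fold (adjusted p = 0.00288). In each of these 4 lists the shares called are read against the 25.1% and 23.9% of all tested genes.

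**Figure D5:**
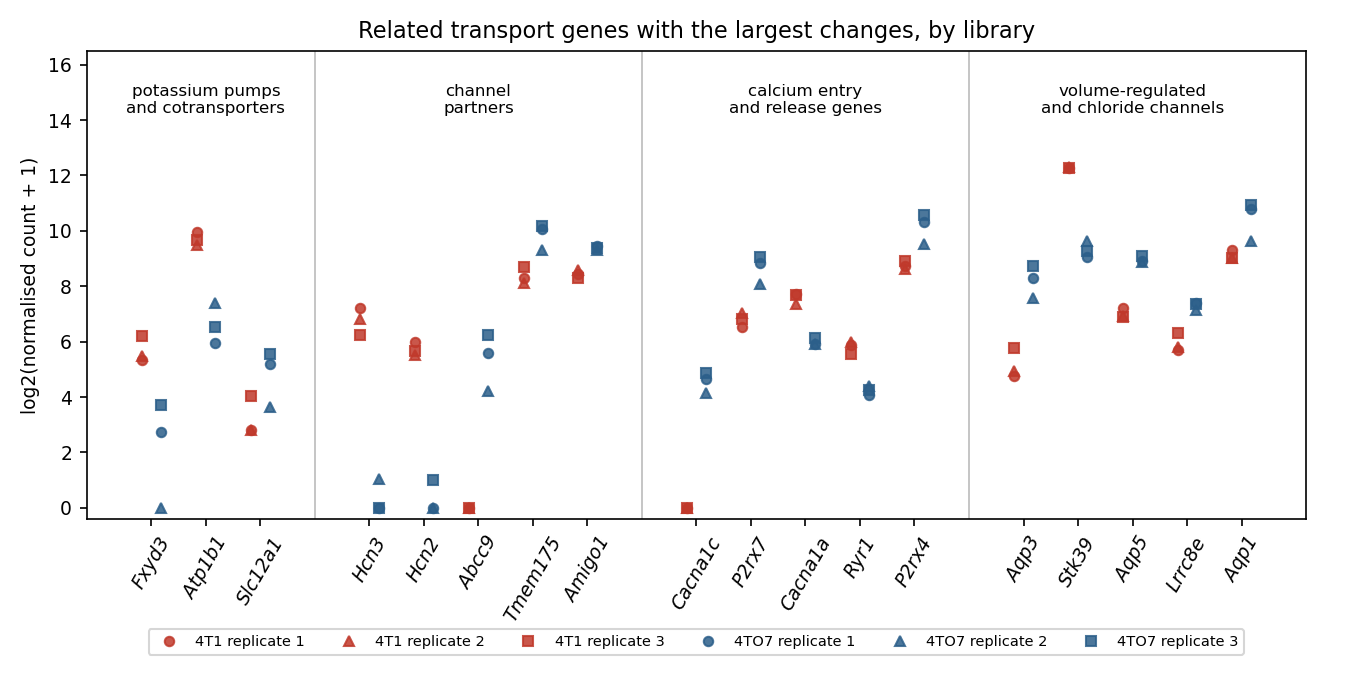
Level, as log2(normalised count + 1), of the genes with the largest called fold changes in the 4 related lists, among those reported here, with 1 symbol per library (shapes mark replicates 1 to 3), red for 4T1 and blue for 4TO7. Stk39 lies between 4953 and 4999 normalised counts in the 4T1 libraries and between 537 and 799 in the 4TO7 libraries, while Abcc9 and Cacna1c are at 0 in all 4T1 libraries.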

How the data were processed

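Total RNA of 3 libraries per line was sequenced. Per the submitters' processing notes, STAR 2.5, featureCounts 1.5, DESeq2 (no version) and GRCm38 were used; annotation release and strand setting are not given in the sources used here. The deposited table holds a normalised signal, which is the authors' counts after division by a size factor for each sample, with their mean. It also carries the authors' log2 fold changes, test scores (the fold change over its standard error) and p-values. All nonzero values (100%, tolerance 1e-06) were whole multiples of 1 step per library, so reads could be recovered; they served for depth, floors of 3 reads, exact 95% intervals (counting error only) and count-test alternatives.

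The deposited values were tested as log2(value + 1) with limma 3.58.1 in R 4.3.3 (group only, intensity trend, robust hyperparameters), two-sided, over the 14276 genes that reached 10 in 3 or more of the 6 samples, adjusted by Benjamini-Hochberg over all of them. On this scale changes of low genes are understated. A fold without log2 is a ratio of line means. The code was tested on simulated data. Exon lengths and coordinates come from GENCODE vM21 (GRCm38), in which all 94 genes were found by identifier; promoter windows from RefSeq were found for 69 of them, and not for Kcnk6, Kcnq1 and Kcnd1.

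The rule named every tested Kcn gene, and up to 5 called genes with the largest change in each of 4 related lists (111 genes); a few of these are not reported here. Members, classes, lists and naming rule were chosen with earlier results of these data known; other genes were named after their values were seen. Replicate numbers were not taken to pair the samples. The alternatives were other pseudocounts, no filter, other scalings, limma without trend, edgeR 4.0.16, DESeq2 1.42.0, a replicate block and leaving out each library.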

Additional observations from a re-analysis of the deposited data

How the results depend on the processing

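Kcn genes higher in 4T1 numbered 4 and those higher in 4TO7 numbered 9; with 1 library left out the counts ran from 4 to 5 and from 8 to 10, and under the other 9 alternatives from 4 to 6 and from 9 to 10. The counts of the 4 related lists stayed within 1.5 times their value under all 15 alternatives. Kcnh3, not called, changed sign when 1 library was left out (log2 fold change from -0.86 to 0.046 over these fits, above 0 in 3 of them). Changes of call among the genes named by rule concerned Kcnk5, Kcnk2, Kcnj4 and Slc12a1, and for Slc12a1 the adjusted p also rose to 0.0505 with a pseudocount of 0.5 and to 0.0565 in limma without trend; the cause was not tested. With equal totals per sample the median of all genes moved from 0.03 to -0.10 (log2), which moved no Kcn gene across 0. edgeR called 6974 and DESeq2 7306 genes, against 6997 with limma.

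The replicate block gave 4 Kcn genes higher in 4T1 and 10 higher in 4TO7, adding Kcnj4 (adjusted p = 0.0371). Over all tested genes the block called 7750, against 6997 without it. Deviations of same-numbered libraries correlated by -0.01, 0.27 and 0.33, and those of differently numbered libraries by -0.39 to 0.27. Replicate numbers were not taken as pairs, and whether same-numbered libraries shared a batch was not tested. Depth limits statements on the 43 genes with no read, for which an expected count of up to about 3 reads per line remains possible.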
